A study of Mus musculus with 15 samples.

Results

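The 86 ribosomal protein genes of the mouse kidney were examined here, out of 54532 genes in the expression table. A gene was included when its Ensembl identifier belonged to a protein-coding gene of GRCm38 with a symbol beginning with Rpl or Rps and a number, or to Rplp0, Rplp1, Rplp2 or Rpsa, without the Rps6k kinases, the pseudogenes and the mitochondrial ribosomal proteins. They comprised 46 core genes of the large (60S) subunit, 31 core genes of the small (40S) subunit, 8 paralogs (Rpl3l, Rpl7l1, Rpl10l, Rpl22l1, Rpl36al, Rpl39l, Rps27l and Rps27rt) and Rps19bp1, whose symbol matches but whose product is a nucleolar partner of S19 and not a protein of the mature ribosome. Poly-A RNA was sequenced from 1 kidney of each of 15 male C57BL/6 mice that entered the study at 8 weeks of age. The control group (C) had normal chow, the CKD model group (M) chow with 0.25% adenine for 4 weeks, and the AA group the same chow with 30 mg/kg of asiatic acid (AA, a plant triterpenoid) by daily gavage, with 5 mice in each. From the end of adenine feeding until week 8 all mice ate standard chow and only AA dosing went on, so every kidney was taken after a recovery period, and the C and M mice received the same vehicle. Adenine forms crystals in the tubules, so the model is one of tubular injury and interstitial fibrosis.

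The cytosolic ribosome has a small subunit, which reads the mRNA, and a large subunit, which joins the amino acids and guides the new chain through an exit tunnel. Nearly every ribosomal protein is present once per ribosome, their mRNAs are among the most abundant of any cell, and copies that do not find a place in a ribosome are degraded. Their mRNAs begin with a 5' terminal oligopyrimidine (5' TOP) tract, through which mTORC1 and Larp1 set their translation and stability. In bulk tissue, the proportion of cells of a type and the RNA per cell cannot be told apart.

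To show that start, the 30 bases around the RefSeq start (15 before it and 15 from it on, GRCm38.p6) are given for the members on which the results below turn most, 5' to 3' on the strand of the gene, with runs of at least 8 pyrimidines (C or T) in capitals. Rpl14, Rpl38 and Rps18 were lower in the AA group in at least 1 comparison, Rps3a1, Rps4x and Rps27rt were higher, and Rps27 is the gene whose mRNA start recurs in Rps27rt. The lines are a selection in which runs and directions happen to go together. Among genes not shown, Rps15a and Rps6 had runs of 10 and were higher in AA vs. C (adjusted p at most 0.05). Rps19bp1, called lower there, had a longest run of 3. No start was given for Rpl36.
Rpl14, chr9:120571502-120571531, plus strand: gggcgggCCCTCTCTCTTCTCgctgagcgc
Rpl38, chr11:114668565-114668594, plus strand: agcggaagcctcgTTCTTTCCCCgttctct
Rps18, chr17:33955651-33955680, minus strand: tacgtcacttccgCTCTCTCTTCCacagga
Rps27, chr3:90213634-90213663, minus strand: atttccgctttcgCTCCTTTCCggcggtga
Rps27rt, chr9:114982725-114982754, minus strand: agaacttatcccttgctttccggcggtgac
Rps3a1, chr3:86142654-86142683, minus strand: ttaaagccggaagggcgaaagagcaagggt
Rps4x, chrX:102189377-102189406, minus strand: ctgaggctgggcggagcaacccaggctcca

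A start was given for 57 of the 77 core genes, and 25 of them (43.86%) had such a run, against 13.91% of the 27025 genes in the same table. The run stood in 17 of 34 large subunit genes and in 8 of 23 small subunit genes. The motif CCGGAAG (either strand), which ETS factors bind, lay within 250 bases before to 50 after 37.31% of the core genes' 67 starts, against 8.86% of the 32851 starts of all genes, and TATAAA lay 15 to 40 bases before 0 of the 67, against 1.99%. A match is only a description of the letters, and RefSeq starts can lie some bases off the start used in kidney, as the lines for Rps3a1 and Rps4x may. The median log2 fold change (log2FC) of the 25 core genes with a run was 0.41 in M vs. C, −0.60 in AA vs. M and −0.04 in AA vs. C, and that of the 32 without one was 0.75, −0.49 and 0.21. These pairs of medians are given without a test.

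M mice 1, 2 and 3 stood apart from the other libraries. They had FPKM (fragments per kilobase of gene, scaled per library) above 0 for 10068 to 12222 genes, where the other 12 had 18695 to 25460, and 2077644 to 2770068 fragments outside the mitochondrial genome, as recovered from the smallest FPKM steps. The AA libraries also had few such fragments, from 2225755 in AA mouse 2 to 4271183 in AA mouse 4. All of them were below the C libraries (6951352 to 13576620) and below M mice 4 and 5 (6488512 and 7142900). The whole range was 2077644 to 13576620. Mitochondrial genes held 84.8 to 86.8% of the fragments of M mice 1 to 3 and 69.2 to 87.2% of those of the AA mice. They held 72.9 and 64.0% in M mice 4 and 5 and at most 62.5% in C. The kidney label held, since proximal tubule markers were found in every library, but their summed FPKM was 3152 to 13158 in the C group against 90.1 to 541 in M and 162 to 552 in AA. Of the 11 marker lists, the B cell list summed to 0 in 2 libraries, M mouse 1 and AA mouse 4, and the others were above 0 in all. Macrophage markers summed to 17.6 to 111 in C, 339 to 443 in M mice 1 to 3, 151 in each of M mice 4 and 5, and 105 to 157 in AA. Fibroblast markers summed to 34.2 to 76.6 in C, 75.9 to 297 in M and 191 to 353 in AA. Xist, a transcript of the inactive X chromosome of female cells, had 2.55 and 1.45 FPKM in M mice 2 and 3 and at most 0.119 elsewhere. The Y-linked Ddx3y and Eif2s3y were above 0 in all 15 libraries. Of the lower Y-linked genes, Uty was at 0 in M mice 1 and 2 and Kdm5d at 0 in M mouse 2. The part of these differences in the results below was not tested, and values without M mice 1 to 3 are given beside most of them. Leaving out M mice 1 to 3 does not remove the difference in depth between the AA and C groups.

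Ribosomal protein mRNA was abundant in every kidney and spread over a wide range of levels. The 46 large subunit genes summed to 2243 ± 441 FPKM in the C group (SD, n = 5) and the 31 small subunit genes to 1441 ± 334. Ranked by mean over the 15 libraries, Rplp1 was first, followed by Rps3a1, Rps15, Rpl36 and Rps27rt. That order leans on the M and AA kidneys, since by the C mean the order was Rpl36, Rps15, Rplp1 and Rps3a1, with Rps27rt at place 27. Rplp1 encodes an acidic protein of the P stalk, which recruits the elongation factors, and had 219.7 ± 46.1 FPKM in the C group (SD, n = 5). At the other end were Rpl24 and Rps10, with at most 1.18 and 0.912 FPKM in any library, although both are core proteins. Rpl24 has 47.0% of its exon bases in another gene on the same strand (Gm28037) and Rps10 20.6%, and reads in such overlaps may be given to neither gene. Rpl13a, a common reference gene, was at 0.488 to 5.63 FPKM with 35.4% of its exon bases overlapped. Rpl10l and Rpl39l were listed at 0 in all 15 libraries, Rpl36al was above 0 in 4 and Rpl3l, the form of striated muscle, in 8.

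The order of levels among the members held between kidneys of the C group, with Spearman's rho of 0.91 to 0.97 over 83 members in the 10 pairs of C libraries. M mice 4 and 5 kept that order (0.92 to 0.96 with the C libraries), whereas rho with the C libraries was 0.73 to 0.89 for M mice 1 to 3 and 0.71 to 0.92 for the AA mice. The M mice 1 to 3 and the AA mice were closer to each other, at 0.87 to 0.96 (median 0.91). M mice 4 and 5 overlapped that range, at 0.76 to 0.95 with the AA mice (median 0.88), and had 0.78 to 0.91 with M mice 1 to 3. These values describe pairs of libraries that share their genes and their gene lengths, and no test was made on them.

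**Figure D1:**
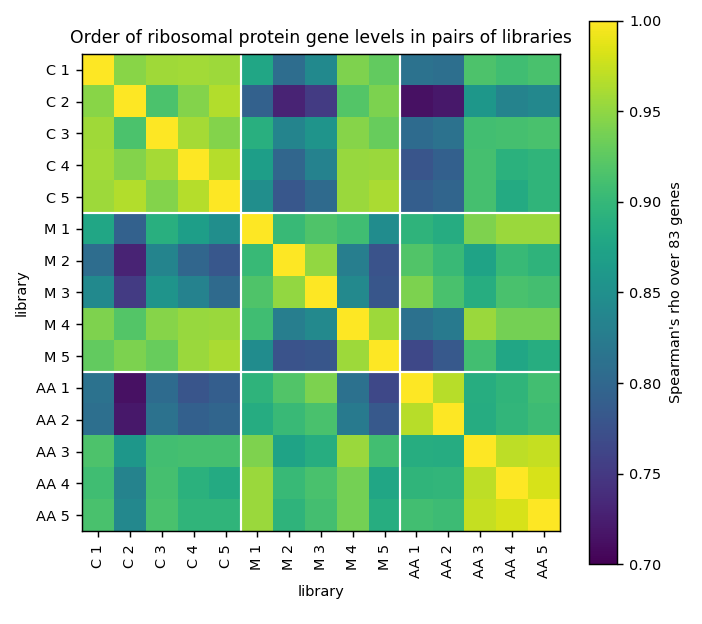
Spearman's rho between the FPKM of 83 ribosomal protein genes in every pair of the 15 libraries (both axes: libraries by group and mouse number; white lines separate the groups). The 5 C libraries and M mice 4 and 5 form one bright area, from 0.91 up, and M mice 1 to 3 with the AA mice form another, from 0.87 up. Pairs across these areas range from 0.71 to 0.95, so the areas are not sharply separate.

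The M vs. C comparison asked how the adenine diet changed these genes. Their summed level was 1.73 times that of the C group, but the higher values were those of M mice 1 to 3, and none of the members passed the test. They summed to 3512, 3209, 3321, 5140 and 3694 FPKM in C mice 1 to 5. In M mice 1 to 5 the sums were 9067, 8351, 8130, 3993 and 3175 FPKM. The first 3 M libraries lay far above all C libraries, M mouse 4 lay among them and M mouse 5 just under the lowest. The fold of the means over C was 2.26 for M mice 1 to 3 and 0.949 for M mice 4 and 5. In M mice 1 to 3 the small subunit genes summed to 2.66 times and the large subunit genes to 1.90 times their C mean. As a share of all nuclear fragments, the members took 1.53 to 3.27% in C, 6.75 to 6.99% in M mice 1 to 3 and 2.85 and 2.21% in M mice 4 and 5.

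Of the 83 members tested in M vs. C (limma on log2(FPKM + 1), where a call needs an adjusted p no higher than 0.05 and a change of 2-fold or more), 73 had a higher and 10 a lower mean in the M group, and 0 were called, where 1.38% of all 21153 tested genes were. At an unadjusted p under 0.05 there were 25 members, where 16.5% of all tested genes were, and limma voom on recovered fragments also called 0. The median log2FC was 0.67 (large subunit 0.66, small subunit 0.82), beside −0.12 over all tested genes, and it turned to −0.31 beside −0.58 when FPKM was rescaled to TPM, whose divisor includes the mitochondrial transcripts. With M mice 4 and 5 alone as the M group the median was 0.01, and 0 members and 0 genes in all were called. With M mice 1 to 3 alone it was 1.21 and 49 were called, 47 of them higher, where 4.09% of all genes tested in that fit were called higher and 15.8% lower. These are the M libraries with the highest member sums, so that count largely follows from their choice and is only a description. Without M mouse 5, 11 were called, all higher, where 0.915% of all genes were. For 0 members did the M and C libraries not overlap, against 4.72% of all tested genes.

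The largest positive log2FCs were those of Rps27rt, Rps4x, Rps3a1, Rps7 and Rps15a, none of which passed the test. Rps4x (ENSMUSG00000031320, chromosome X, 102184941 to 102189394), a protein of the small subunit body, had 38.8, 22.3, 34.4, 63.8 and 42.3 FPKM in C mice 1 to 5. The M mice, in the same order, had 261, 258, 268, 64.5 and 32.9. M mice 1 to 3 were within a narrow band far above C, and M mouse 5 was among the C mice. Its log2FC was 1.76 (SE 0.58, adjusted p = 0.160), and 0.27 with M mice 4 and 5 alone. Rps3a1 (ENSMUSG00000028081, chromosome 3, 86137940 to 86142702), the mouse eS1 protein near the mRNA exit, had 118, 71.8, 116, 186 and 140 FPKM in C mice 1 to 5, and the M mice had 564, 589, 582, 154 and 112 (log2FC 1.40, SE 0.52, adjusted p = 0.208 by limma). Rps27rt had a log2FC of 1.87 (SE 0.58, adjusted p = 0.137), Rps7 of 1.33 and Rps15a of 1.32. With M mice 4 and 5 alone these 4 were at 0.12 (Rps3a1), 0.60 (Rps27rt), −0.0076 (Rps7) and 0.09 (Rps15a).

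The members with lower means were led by Rpl7a (−1.76), Rps19bp1 (−1.38), Rpl38 (−1.20), Rpl36 (−0.56) and Rpl28 (−0.27) on the log2 scale, and their adjusted p ranged from 0.222 to 0.628. Without M mice 1 to 3, Rpl7a was at 0.43 and Rpl38 at 0.14, with the other 3 between −0.16 and −0.34. Rpl38 (ENSMUSG00000057322, chromosome 11, 114668524 to 114672331), a small protein of the large subunit that is known for its part in the translation of Hox mRNAs, had 41.0, 61.9, 46.5, 81.9 and 67.0 FPKM in C mice 1 to 5. In M mice 1 to 5 it had 80.1, 6.00, 3.67, 74.7 and 54.2. Mice 2 and 3 were thus far below the other M mice, while most members were high in them. Rpl7a (ENSMUSG00000062647, chromosome 2, 26910764 to 26913318) had 2.19, 5.15, 25.1, 36.1 and 18.2 FPKM in the C mice and ranged over 1.16, 0.161, 0.0827, 13.3 and 20.2 in M mice 1 to 5, so it varied widely in both groups. Pseudogenes or other genes share 87.1% of the 31-base words of its transcripts, and 31.6% of those of Rpl38. Rpl38 and Rpl7a were the only core genes for which M mice 2 and 3 were both under the lowest of the other M mice by more than 2-fold, and those mice are also the 2 with Xist above 1 FPKM. Both genes were also more than 2-fold lower in AA mice 1 and 2 than in any of AA mice 3 to 5, and Xist was at 0 in AA mice 1 and 2. A link with Xist was not tested.

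**Figure D2:**
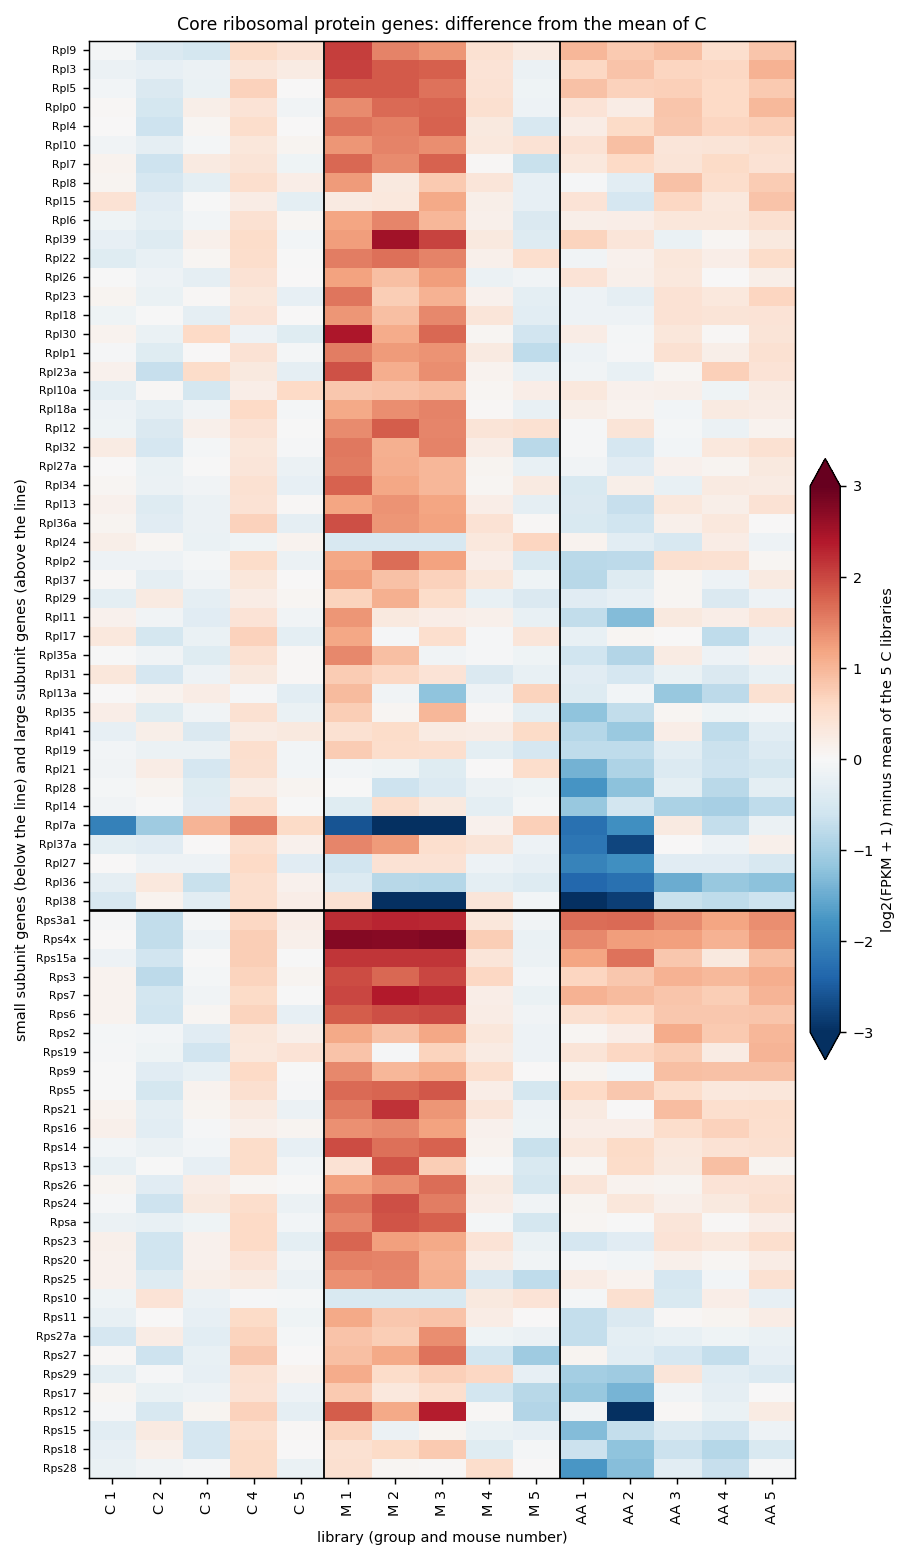
Colour gives log2(FPKM + 1) minus the mean of the 5 C libraries for the core genes (rows, ordered by the AA vs. C fold change within each subunit) in each of the 15 libraries (columns). M mice 1 to 3 are red for most genes, with 44 to 52 of the 77 core genes at least 2-fold above the C mean, M mice 4 and 5 are pale, and the deep blue cells include those of Rpl38 and Rpl7a in M mice 2 and 3 and of several large subunit genes in AA mice 1 and 2.

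Grouped by place in the ribosome, 0 of each group were called in M vs. C. The 4 genes of the P stalk (Rplp0, Rplp1, Rplp2 and Rpl12) had a median log2FC of 0.90, and Rplp0, its base, went from 82.1 ± 19.2 to 187 ± 90.7 FPKM (SD, n = 5 in each, adjusted p = 0.231). Rpl5 and Rpl11, which carry the 5S rRNA and bind Mdm2 when free, had log2FCs of 1.13 and 0.35. The 8 genes at the exit tunnel and its rim had a median of 0.51, from 0.20 for Rpl19 to 1.14 for Rpl39. Rps2 and Rps3, at the mRNA entry, had 0.67 and 1.25, and the 4 genes at the mRNA exit had a median of 0.86. Rps6, the substrate of the S6 kinases, had a log2FC of 1.16, Rps19, a gene mutated in Diamond-Blackfan anaemia, of 0.32, and Rpl3 and Rpl10, near the peptidyl transferase centre, of 1.18 and 0.99. Of the 5 tested paralogs, 4 had a higher mean and 0 were called. With M mice 4 and 5 alone the medians were 0.01 for the P stalk, −0.11 for the exit tunnel, 0.19 for the mRNA entry and −0.20 for the mRNA exit, and the log2FCs of Rplp0, Rpl5, Rpl11, Rps6, Rps19, Rpl3 and Rpl10 lay between −0.04 and 0.38.

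The AA vs. M comparison asked what AA changed in kidneys of the adenine diet. Most members had lower means in the AA group, and 2 of them passed the test. The members summed to 3583, 3726, 4422, 4019 and 4649 FPKM in AA mice 1 to 5, below M mice 1 to 3 and within or above the range of M mice 4 and 5. The fold of AA over M was 0.624, and 0.479 against M mice 1 to 3 and 1.14 against M mice 4 and 5. Of 82 members tested, 76 had a lower and 6 a higher mean, with a median log2FC of −0.59 (large subunit −0.62, small subunit −0.54), beside 0.17 over all genes. Against M mice 4 and 5 alone the median turned to 0.14, and the 2 members called were others, Rps3a1 higher (1.35, adjusted p = 0.0306) and Rps19bp1 lower (−2.41, adjusted p = 0.0206), where 2.39% of all genes were called higher and 6.23% lower.

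Rpl36 and Rps18 were called lower in the AA group, 2 of 82, where 1.07% of the 19798 tested genes were called lower, 11.7% higher and 12.8% in either direction. Rpl36 (ENSMUSG00000057863, chromosome 17, 56613416 to 56614243), a small protein of the large subunit, had 183, 136, 133, 199 and 185 FPKM in M mice 1 to 5 and 46.4, 50.4, 86.5, 110.1 and 103 in AA mice 1 to 5. All AA libraries were below all M libraries, and all M libraries were within the C group's range or just under it (152 to 346). The log2FC was −1.13 (SE 0.35, adjusted p = 0.0363), and with M mice 4 and 5 as the only M kidneys it was −1.35 (adjusted p = 0.0684). Rps18 (ENSMUSG00000008668, chromosome 17, 33951999 to 33956001), which lies in the head of the small subunit and is a common reference gene, had 79.1, 85.9, 99.1, 43.8 and 54.3 FPKM in the M mice and 36.1, 24.0, 36.1, 31.1 and 41.0 in the AA mice. The AA values did not overlap the M values. Its log2FC was −1.04 (SE 0.33, adjusted p = 0.0409), and −0.55 with those 2 M mice only (adjusted p = 0.297).

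Both calls lay close to the threshold. Among protein-coding genes alone 0 members were called (lowest adjusted p 0.0507). Rpl36 was not called without M mouse 1, 2, 3 or 4 or AA mouse 1, 2 or 3 (adjusted p of 0.0504 to 0.0911), and Rps18 was not called without M mouse 1, 2 or 3 or any 1 AA mouse (0.0519 to 0.106). Without M mouse 5, 9 members were called, all lower, where 1.14% of all genes were. The AA libraries were below all M libraries for 6 members (Rpl36, Rps18, Rps28, Rpl41, Rpl14 and Rpl21) and above them for 0. Of all tested genes, 1.31% lay below and 11.9% above, 13.2% in all. Rpl41, the shortest ribosomal protein, had 98.1, 105.0, 83.9, 83.4 and 106 FPKM in the M mice and 38.8, 32.0, 81.8, 41.8 and 56.7 in the AA mice (log2FC −0.98, adjusted p = 0.0512). Rpl12 of the P stalk had −1.06 (adjusted p = 0.0503). The members with higher means were Rpl7a, Rps19, Rpl7l1, Rps10, Rps3a1 and Rpl15, by 0.00 to 0.81 on the log2 scale, with adjusted p from 0.533 to 0.995.

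**Figure D3:**
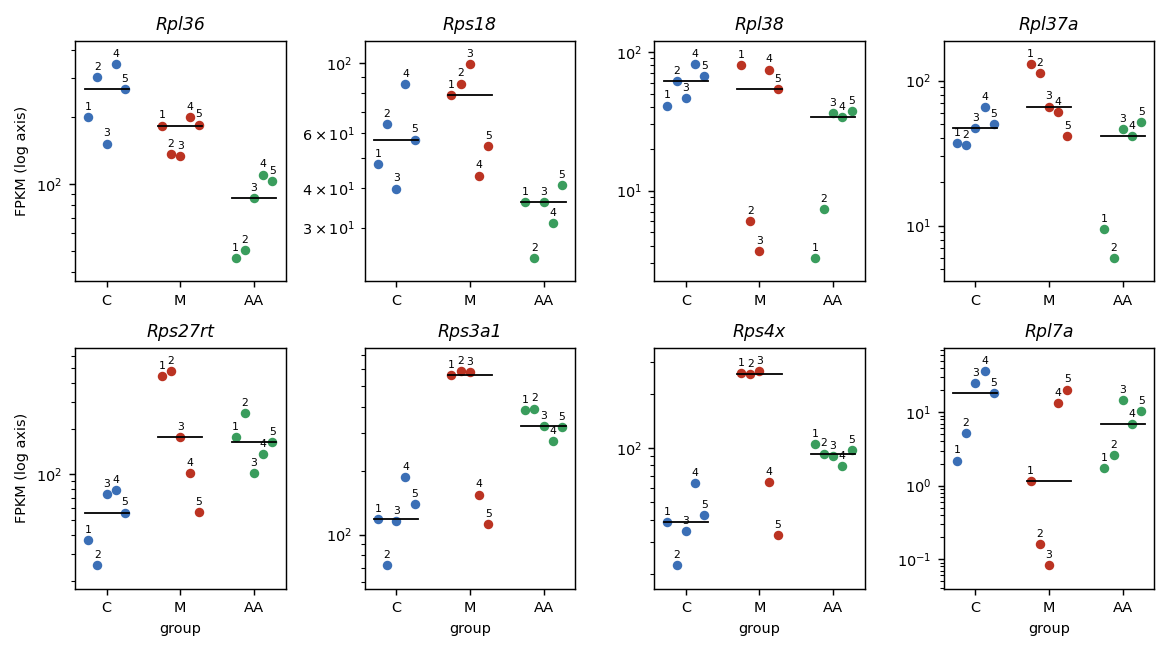
FPKM (log axis) of 8 genes in each kidney of the C, M and AA groups, 5 mice each, with the mouse number above each point and a line at the group median. The AA points of Rpl36 and Rps18 are below all M points, the AA points of Rps27rt, Rps3a1 and Rps4x are above all C points, and Rpl38, Rpl37a and Rpl7a split within groups.

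The AA vs. C comparison asked how kidneys given adenine and AA differed from normal kidneys. The members did not move as 1 block: 47 of 83 had higher and 36 lower means, with a median log2FC of 0.07 beside 0.09 over all tested genes (−0.96 beside −0.39 with TPM). The median was 0.01 for the large and 0.28 for the small subunit. Rps27rt, Rps3a1 and Rps4x were called higher and Rpl36, Rpl38 and Rps19bp1 lower, 6 of 83 where 19.8% of the 21898 tested genes were called (10.2% higher and 9.61% lower). With TPM 34 members were called, 0 of them higher, and Rps27rt, Rps3a1 and Rps4x, at 0.56, 0.37 and 0.17 on the log2 scale, no longer passed (adjusted p of 0.270 to 0.719). After centring of the libraries by their medians 10 were called, 7 of them higher. The shares of all genes given above belong to the main fit. Those for TPM and for centring are not given here, so these counts have no share to be read against. At an adjusted p of at most 0.05 without a limit on the fold there were 18 members (11 higher and 7 lower), against 35.9% of all tested genes.

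Rps3a1 had 386, 392, 325, 276 and 321 FPKM in AA mice 1 to 5, all above the highest C mouse (186), a log2FC of 1.48 (SE 0.27, adjusted p = 0.00204). Rps4x had 105, 93.1, 90.6, 79.6 and 97.7 in the AA mice, all above the highest C mouse (63.8), a log2FC of 1.26 (SE 0.27, adjusted p = 0.00413, and 0.0667 with all 15 libraries in 1 fit). Rps27rt (ENSMUSG00000050621, chromosome 9, 114982366 to 114982739) is an intronless retrocopy of Rps27. It had 37.0, 25.3, 73.9, 78.8 and 56.1 FPKM in the C mice, whereas the AA mice had 176, 254, 103, 136 and 163, with no overlap (log2FC 1.65, SE 0.35, adjusted p = 0.00413). Of the 31-base words of its transcript, 92.7% also occur in other genes, most of all in Rps27, so reads of either may be given to the other. Rps27 itself had 39.7 ± 16.2 FPKM in C and 29.8 ± 6.35 in AA (SD, n = 5 in each), a log2FC of −0.34 (adjusted p = 0.353). Rps3a1 and Rps4x share 76.9% and 78.4% of their words with pseudogenes and other copies.

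Rpl36 had 200.2, 303, 152, 346 and 266 FPKM in C mice 1 to 5, all above the AA mice, a log2FC of −1.69 (SE 0.32, adjusted p = 0.00269). Other genes, mainly pseudogenes, hold 94.1% of its words. Rpl38 had 3.25, 7.36, 36.3, 33.7 and 37.4 FPKM in AA mice 1 to 5, all below the lowest C mouse (41.0), with mice 1 and 2 lowest by far. Its log2FC was −1.73 (SE 0.58, adjusted p = 0.0345), and it was not called without C mouse 2, 4 or 5 or AA mouse 1 or 2 (adjusted p of 0.0550 to 0.0761), with a pseudocount of 0.01 (0.0507), with genes above 0 in any library (0.0706) or with all 15 libraries in 1 fit (0.106). Rps19bp1 (ENSMUSG00000051518, chromosome 15, 80260615 to 80264315) had 7.88, 11.6, 9.69, 5.18 and 9.74 FPKM in C mice 1 to 5, against 1.76, 0, 0.123, 2.15 and 0 in AA mice 1 to 5. Its log2FC was −2.60 (SE 0.37, adjusted p = 0.000562), and it has no shared words.

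Below the limit on the fold, Rps3, Rps7, Rps15a, Rps6, Rpl3, Rpl5 and Rpl9 also had an adjusted p of at most 0.05 with higher means in AA. Their log2FCs were 0.70 to 0.96. Rpl14, Rpl21, Rpl28 and Rps18 did so with lower means, from −0.76 to −0.88. Rpl14, whose pyrimidine run is given above, had 99.1, 106, 84.9, 152 and 106 FPKM in the C mice. Its 5 AA libraries, at 48.0, 73.3, 55.1, 53.8 and 62.7, did not overlap them. The AA libraries were above all C libraries for 7 members and below them for 6, against 11.5% above and 12.5% below (24.0% in all) of all tested genes.

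**Figure D4:**
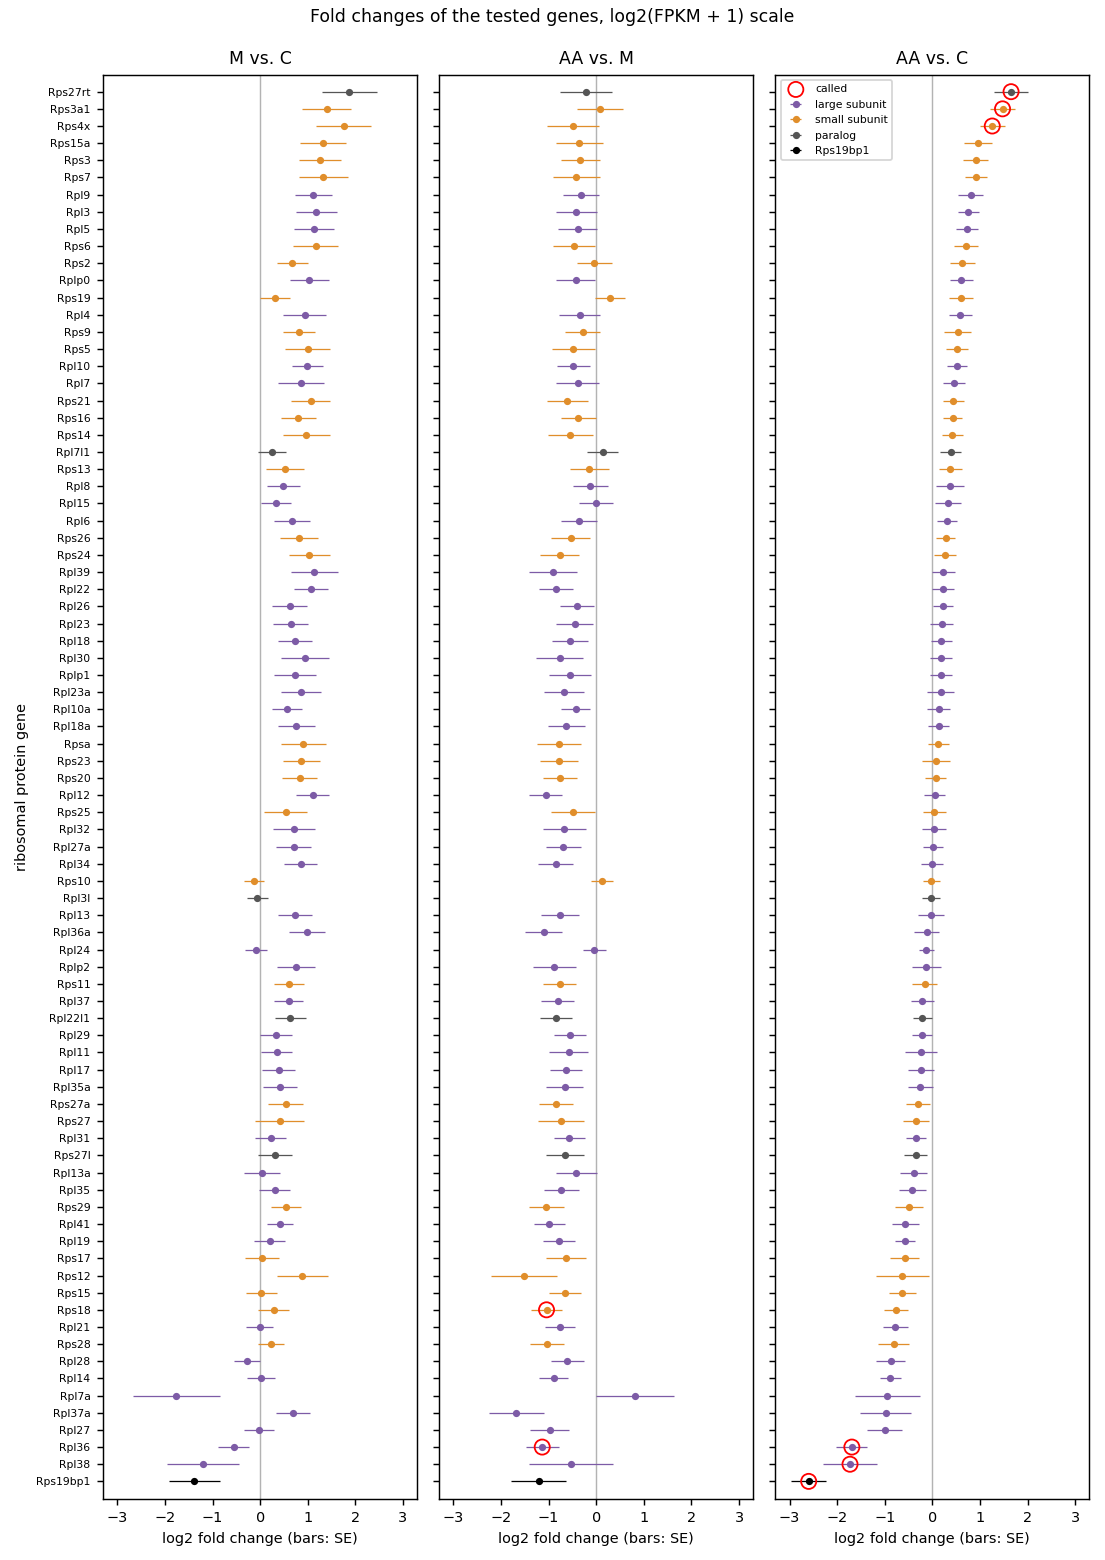
Log2FC (points) with its SE (bars) for tested members in the 3 comparisons, ordered by AA vs. C and coloured by subunit. Red circles mark called genes, 0 in M vs. C, 2 in AA vs. M and 6 in AA vs. C, and most points lie right of 0 in the first panel and left of it in the second.

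AA mice 1 and 2 stood apart from AA mice 3 to 5 in part of the core genes. In each of AA mice 1 and 2, 13 of the 77 core genes were at least 2-fold below the C mean, against 2, 1 and 1 in AA mice 3 to 5. At least 2-fold above it were 5 and 3, against 4, 2 and 7. The median SD of log2(FPKM + 1) over the 5 kidneys was 0.31 in AA, 0.34 in C and 0.74 in M for the 77 core genes, and 37 of them had a larger SD in AA than in C. Among AA mice 3 to 5 alone the median SD was 0.18, and 10 genes had a larger SD than in C. Rpl27, Rpl37a, Rpl38 and Rpl7a were more than 2-fold lower in both AA mice 1 and 2 than in any of AA mice 3 to 5, and 0 core genes were higher by as much. Rpl37a (ENSMUSG00000046330, chromosome 1, 72711290 to 72713813), a zinc-binding protein of the large subunit, had 9.43 and 5.98 FPKM in AA mice 1 and 2 and 41.6 to 51.7 in the other 3, where the C mice had 36.1 to 65.7 and the M mice 41.2 to 129.9. Rps12, a small subunit protein, was at 0.711 FPKM in AA mouse 2 and at 11.9 to 16.6 in the other AA mice. All of these were picked with their values in view.

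The ratio of the large to the small subunit sum varied little among normal kidneys and was lower in M mice 1 to 3 and the AA mice. The 46 large subunit genes summed to 1.58, 1.62, 1.54, 1.48 and 1.60 times the 31 small subunit genes in C mice 1 to 5. The ratio was 1.17, 1.08, 1.08, 1.51 and 1.66 in M mice 1 to 5 and 1.01, 1.01, 1.19, 1.17 and 1.18 in AA mice 1 to 5. M mouse 4 was within the C range and M mouse 5 above it. A few abundant genes weigh on such sums. Without Rps3a1 and Rpl36 the ratio was 1.45 to 1.57 in C, 1.23 to 1.31 in M mice 1 to 3 and 1.27 to 1.37 in AA, and the ratio of the subunits' median FPKM overlapped between the groups (0.880 to 1.14 in C, 0.681 to 0.991 in M and 0.729 to 0.934 in AA). The median log2FC of the large subunit minus that of the small subunit was −0.16 in M vs. C, −0.08 in AA vs. M and −0.27 in AA vs. C. It became −0.43 in AA vs. M against M mice 4 and 5 alone and 0.19 against M mice 1 to 3 alone. No test was made on these scores over the members.

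**Figure D5:**
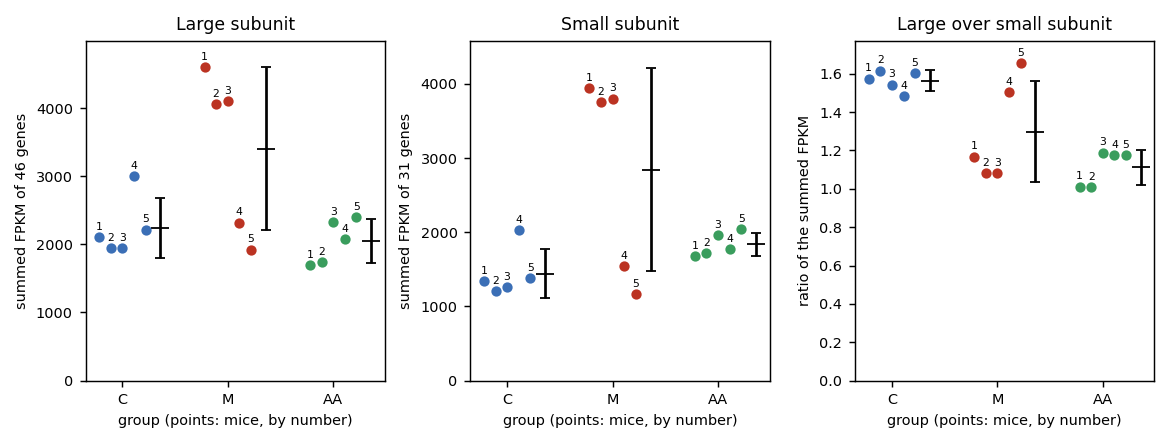
Summed FPKM of the 46 large and the 31 small subunit genes and their ratio in each kidney (points, mouse number above), with the mean and SD of the group of 5 as a black bar. M mice 1 to 3 are the highest in both sums, and the ratio is 1.48 to 1.62 in C, 1.08 to 1.17 in M mice 1 to 3 and 1.01 to 1.19 in AA.

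Paralogs were compared with their parent gene as the difference of log2(FPKM + 1), in 9 two-sided exact permutation tests (smallest p 0.00794) with Benjamini-Hochberg adjustment over the 9. The ratio of Rpl22l1 to Rpl22 was −2.30 ± 0.26 in C, −2.73 ± 0.68 in M and −2.73 ± 0.24 in AA on the log2 scale (SD, n = 5 in each). Its difference of −0.43 in AA vs. C had an exact p of 0.0317 and an adjusted p of 0.286. The ratio of Rps27l, which p53 induces, to Rps27 differed by −0.10 in M vs. C, 0.09 in AA vs. M and −0.01 in AA vs. C, with exact p of 0.794 to 0.968. The ratio of Rpl7l1 to Rpl7 differed by −0.61, 0.53 and −0.08, with exact p of 0.238 to 0.762. With M mice 4 and 5 alone it turned to 0.35 in M vs. C and to −0.43 in AA vs. M, and that of Rps27l to Rps27 to 0.31 and −0.32. The lowest adjusted p of the 9 was 0.286, so 0 of the 9 passed the test.

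Genes that work with the ribosomal proteins were counted by fixed lists. Of 18 mRNAs with a 5' TOP that encode no member, 17 had a higher mean in M vs. C, with a median of 0.72, and only Vim, an intermediate filament of mesenchymal cells, was called (7.76 ± 2.32 in C, 52.8 ± 38.0 in M and 14.1 ± 3.27 in AA). Vim was also called lower in AA vs. M (log2FC −1.56, adjusted p = 0.0297). In AA vs. C, Eef1a1 and Pabpc1, named after their values were seen, were called higher and 1 of the 18 lower. Of all tested genes, 10.2% were called higher and 9.61% lower in that comparison. With M mice 4 and 5 alone the median was 0.02 in M vs. C, and Vim was at 1.38 in M vs. C (adjusted p = 0.130) and −0.58 in AA vs. M (adjusted p = 0.263).

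Of 47 ribosome biogenesis factors, 0 were called in M vs. C, 6 lower in AA vs. M and 7 lower in AA vs. C, with medians of −0.07, −0.33 and −0.52. Of all tested genes, 1.07% were called lower and 11.7% higher in AA vs. M, and 9.61% lower and 10.2% higher in AA vs. C. In M vs. C 1.38% were called in either direction. These shares stand beside the counts above and below. Against M mice 4 and 5 alone 7 were called lower in AA vs. M, where 6.23% of all genes were. Nop2, an rRNA methyltransferase, had 5.12 ± 1.59 FPKM in C, 3.58 ± 1.44 in M and 0.392 ± 0.293 in AA (SD, n = 5 in each), with log2FCs of −1.69 in AA vs. M (adjusted p = 0.00445) and −2.13 in AA vs. C (adjusted p = 0.000199). Wdr43, a factor of the small subunit processome, fell by 1.59 on the log2 scale in AA vs. M (adjusted p = 0.00489). Of 9 tested snoRNA host genes, many of which carry a 5' TOP, 2 were called lower in AA vs. M (5 against M mice 4 and 5 alone) and 5 in AA vs. C. Snhg8 had 12.4 ± 5.20 FPKM in C, 14.6 ± 5.67 in M and 3.61 ± 1.68 in AA, and Snhg12 had 5.59 ± 2.37, 2.56 ± 1.70 and 0.383 ± 0.404. Of 77 tested mitochondrial ribosomal proteins, 0 were called in M vs. C, 1 lower in AA vs. M (4 against M mice 4 and 5 alone) and 17 lower in AA vs. C, with a median of −0.54 in the last. Mrpl38 and Mrpl24 led these, with log2FCs of −2.18 and −2.17 in AA vs. C.

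Of 37 translation initiation factors, 0 were called in M vs. C, 2 lower in AA vs. M, and 2 higher and 5 lower in AA vs. C. Of 14 elongation and release factors, 1 was called, higher in AA vs. C. Among 21 tested mTORC1 and 5' TOP regulators, Mtor, the kinase itself, was called lower in M vs. C (7.13 ± 4.30 to 0.986 ± 0.637 FPKM, log2FC −1.94, adjusted p = 0.0304, and −1.49 with adjusted p = 0.242 for M mice 4 and 5 alone), 0 were called in AA vs. M and 3 lower in AA vs. C, led by Rps6kb2, an S6 kinase (−2.78, adjusted p = 0.000225). Of 8 genes of the Mdm2 and p53 response, Bax, an effector of apoptosis, was called lower in AA vs. M (11.3 ± 8.05 to 2.62 ± 1.84 FPKM, adjusted p = 0.0242), and 1 was called lower in AA vs. C. Of 12 reference genes, 1 was called higher and Rps18 lower in AA vs. M, and 1 was called higher and Gapdh, a glycolytic enzyme, lower in AA vs. C (5.96 ± 4.22 to 0.0301 ± 0.0397 FPKM). Words shared with other genes were counted for the members only, so this limit was not examined for Gapdh or the other listed genes.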

How the data were processed

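Reads of 150 bases in pairs were not used here. Per the labels, the authors trimmed reads (fastp), aligned them to mm10 with HISAT2 2.0.5, counted fragments on genes with featureCounts 1.5.0-p3 and deposited 1 FPKM value per gene and kidney. The annotation they used is not given in the sources used here. Identifiers were matched to GENCODE M21 on GRCm38 (all but 37 of 54532). From the smallest FPKM steps and exon lengths, 13647036 to 28884450 fragments per library were recovered (97.5 to 99.3% of low values whole within 0.05), 55198 to 349267 of them on the members. The divisor of the deposited FPKM was 0.518 to 2.30 times this total and followed median-of-ratios size factors (relative range 0.953 to 1.038, over 7206 genes above 0 in all libraries), so the values are not scaled to each library's total fragments, and a common factor stays unknown. Precision is limited by 5 mice per group.

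Genes above 0 FPKM in at least 5 of the 10 libraries compared were fitted as log2(FPKM + 1) with limma 3.58.1 (R 4.3.3, eBayes with an intensity trend, 2 groups per fit), since the values are not counts. Fold changes on this scale understate those of low genes. Genes were called when p, adjusted by Benjamini-Hochberg over all tested genes, was no higher than 0.05 and the change 2-fold or more. The fit was also run on simulated data for M vs. C with known changes. The simulated noise was independent between genes, so shifts shared by all genes of a library were not covered. SD and n refer to kidneys, each from 1 mouse. Ratios of paralogs were tested by exact permutation over kidneys. Shared sequence was the percent of the 31-base words of a gene that another gene's transcripts also hold, and the start sequences and motifs came from RefSeq (GRCm38.p6).

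Named genes were the 5 highest and the 5 lowest of the tested members by mean level, called members, the 5 largest log2 fold changes in each direction per comparison, a list of genes by role, the paralogs, and up to 6 called genes of the fixed lists per comparison by the size of the change. Exceptions are marked in the text, and some genes are not reported here by name or in the figures. The members, lists, rule and most alternatives were chosen with earlier results of these data known. The alternatives were pseudocounts of 0.1 and 0.01, other filters and scalings (TPM, TPM without mitochondrial genes, centring, quantile normalization), all 15 libraries in 1 fit, no trend, quality weights, a replicate block, subsets of the M mice, each library left out, protein-coding genes only and core genes only. Limma voom on recovered fragments was added after the data were seen.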

Additional observations from a re-analysis of the deposited data

Results flagged for a closer look

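The highest or lowest kidney of each group of 5 was compared with the rest for the subunit sums, their ratio, the members' share of fragments and the members with the largest changes, by the gap to its neighbour divided by the group's range (limit 0.71). Of 69 groups, 3 passed the limit, where chance gives about 1 in 20.

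C mouse 4 was the highest of its group for the large subunit sum (gap 0.742 of the range), with 3005 FPKM where the other 4 C mice had 1942 to 2217. It was also the highest for the small subunit sum (0.78), with 2025 FPKM against 1201 to 1382. Its ratio of the sums, 1.48, was the lowest of the C group but within the limit. Rps10 in C mouse 2 was at 0.818 FPKM against 0.221 to 0.332 in the other C mice (0.814), a level at which a gene has few fragments.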

How the results depend on the processing

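With M mice 4 and 5 only, the members' median was 0.0087 in M vs. C, and for AA vs. M it turned to 0.14, large minus small became −0.43 in AA vs. M, and the ratio of Rpl7l1 to Rpl7 turned to 0.35 (M vs. C) and −0.43 (AA vs. M). With M mice 1 to 3 only, 49 members were called in M vs. C with a median of 1.21, and 46 in AA vs. M with large minus small at 0.19. The share of all genes called in that AA vs. M fit is not given here. The same holds for the other scalings and fits below, so their counts show only how the calls depend on the processing. TPM, which brings the mitochondrial share back into the divisor, called 2 members in M vs. C (both lower), 0 in AA vs. M and 34 in AA vs. C (all lower), and turned the medians to −0.31 (M vs. C) and −0.96 (AA vs. C). The median of all genes moved to −0.58 and −0.39 there, so the members stood 0.27 above and 0.57 below all genes (main values 0.80 above and 0.02 below). In AA vs. M the calls were 8 with TPM outside the mitochondrial genome, 1 after centring, 7 after quantile normalization, 7 with all 15 libraries in 1 fit, 4 without the trend, 0 among protein-coding genes and 0 with the replicate block. In AA vs. C centring gave 10 calls (7 higher). Leaving out 1 kidney gave 0 to 11 calls for M vs. C, 0 to 9 for AA vs. M and 5 to 9 for AA vs. C. All other alternatives kept the counts within 1.5 times and the medians within 1 SD of the kidneys.

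The replicate numbers did not pair the mice: same-numbered deviations correlated at −0.13 to 0.22, and 2, 0 and 1 of the 5 pairs exceeded 0.1 in the 3 comparisons, in the order used above. With the replicate block 0, 0 and 6 members were called.

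Depth limits genes with few fragments: Rps10 and Rpl24 were near 0 in M mice 1 to 3, where fewer genes were detected. Rpl3l was at 1.15 FPKM in M mouse 1 and at 0 in M mice 2 to 5. Of the 86 members, 36 share over 50% of their words with other genes. Members of 1 comparison share kidneys with the next, since each group enters 2 of the 3, so the comparisons are not independent of each other.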
